A study of Bos taurus with 6 samples.

Results

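LATS2, BLM, TP53I11 and BRAT1 are 4 genes of growth control and genome stability, each of which is named at 1 region in the authors' deposited table of regions whose blood DNA methylation differed between Creole and Spanish cattle. The loci were taken as the gene range given in that table plus 20000 bp on each side, and their members are all CpG cytosines there with at least 10 read calls in at least 1 library. This gave 1385 of the 2818800 such cytosines on the chromosomes, of which 310 lay at LATS2, 166 at BLM, 257 at TP53I11 and 652 at BRAT1. The genes were chosen by the authors' listed methylation differences, so the differences at the listed regions are given as a description with no test.

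The samples were blood DNA of 6 adult males of 5 breeds, 3 in each group, with 1 reduced representation bisulfite sequencing library per animal. Creole 1 was a Sanmartinero, and Creole 2 and Creole 3 were Costeno con Cuernos. Spanish 1 was a Retinta, Spanish 2 an Asturiana de los Valles and Spanish 3 of the Lidia breed. In this assay the enzyme MspI cuts at CCGG, short fragments are kept, and bisulfite turns unmethylated cytosines into bases read as T, so the methylation level of a cytosine is its methylated calls over all its calls. One extraction kit was used for Creole and another for Spanish DNA, and the lane mark of the libraries also coincided with group. Kit, lane mark and group therefore cannot be told apart. The spread within a group is between animals and, in most pairs, between breeds. Blood holds several cell types, whose proportions were not measured, so a level of a library is an average over an unknown mix.

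LATS2 is a kinase of the Hippo pathway, which restrains organ growth by phosphorylating the coactivators YAP1 and WWTR1. BLM is a RecQ helicase that unwinds recombination intermediates and limits exchange between sister chromatids, and its loss causes Bloom syndrome in humans. BRAT1 binds BRCA1 and the kinase ATM in the response to DNA breaks. CpG-dense stretches at the start of genes are usually unmethylated in mammalian blood cells, while the bodies of genes and the sequence between them are mostly methylated.

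The libraries read different parts of the same loci. Creole 1 measured 877 of the 1385 cytosines with 10 or more calls, Creole 2 measured 173 and Creole 3 measured 133, while Spanish 1 measured 306, Spanish 2 measured 623 and Spanish 3 measured 263. Creole 1, the only Sanmartinero, thus gave most of the Creole values, and over the chromosomes its library held 84537374 calls while the other 5 held 39821358 to 51757843. Of the 2180 cytosines covered at any depth in the loci, 1088 (49.9%) were read in 1 library alone, close to the 51.3% of the whole genome. None was read in all 6 libraries, against 1.44% of covered cytosines over the genome, and 45 were read in 5.

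**Figure D1:**
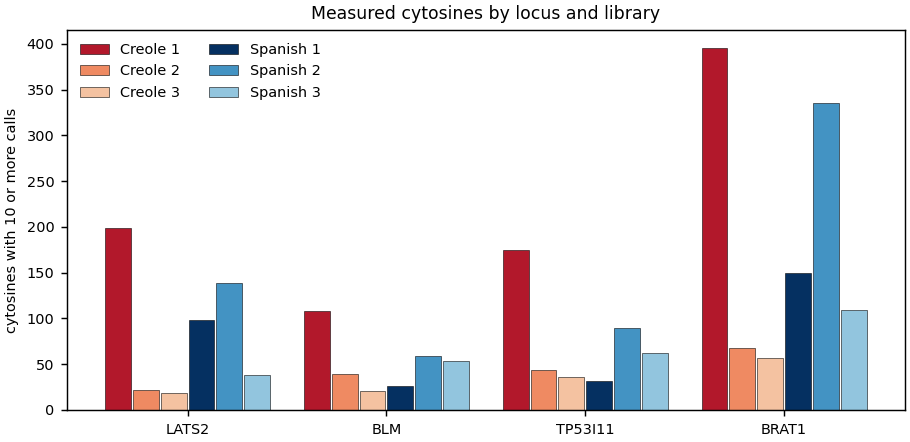
Number of cytosines with 10 or more calls (y axis) at each of the 4 loci (x axis) in each library, with the 3 Creole libraries in red tones and the 3 Spanish libraries in blue tones. Creole 1 and Spanish 2 have the tallest bars at each locus, and BRAT1, the locus with the most cytosines, reaches 395 in Creole 1 and 335 in Spanish 2.

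The listed regions were short and were covered by only some of the libraries. Coordinates are on the build UMD3.1. The LATS2 region lies in an intron on chromosome 12 at chr12:35923079-35923139 (61 bp, 8 CpGs), within a gene range of chr12:35919546-35942309. The BLM region lies in an intron at chr21:22267521-22267666 (146 bp, 7 CpGs) in the gene range chr21:22264540-22331807. The TP53I11 region is intronic as well, at chr15:75872398-75872498 (101 bp, 5 CpGs) in the gene range chr15:75870185-75884870. The BRAT1 region, at chr25:41219639-41219695 (57 bp, 4 CpGs), lies 3534 bp beyond the upper end of the gene range chr25:41207310-41216105, in the shelf of a CpG island at chr25:41216397-41217352. In all 275 listed regions with a gene, the distance to the gene start in the authors' deposited table equals the region's end minus the lower-coordinate end of the gene range, so it does not take strand into account and is not used here.

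All 4 regions were methylated in the Creole libraries that covered them and nearly unmethylated in the Spanish ones. At LATS2, Creole 1 was methylated in 128 of 128 calls (100%, 95% Wilson interval 97.1 to 100), and Creole 2 and Creole 3 had no call, while Spanish 1 was methylated in 0 of 200 calls, Spanish 2 in 0 of 16 (interval 0 to 19.4%) and Spanish 3 in 3 of 438 (0.685%). The Creole value therefore rests on 1 animal with 16 calls at each of the 8 cytosines, and Spanish 2 had 2 calls at each. Calls of neighbouring cytosines come from the same reads and, with PCR and no molecular identifiers, often from the same molecules. The intervals treat every call as independent, so they are too narrow even for counting error, and they leave out the spread between animals.

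At BLM, Creole 1 was methylated in 405 of 411 calls (98.5%) and Creole 2 in 119 of 120 (99.2%), while Spanish 2 was methylated in 0 of 84 and Spanish 3 in 0 of 35. Creole 3 and Spanish 1 had no call there. The 2 Creole libraries averaged 98.9% ± 0.443 (SD, n = 2) and both Spanish ones stood at 0%, with 5 calls per cytosine in Spanish 3. At TP53I11, Creole 1 was methylated in 65 of 65 calls, Creole 2 in 55 of 55 and Creole 3 in 803 of 805 (99.8%), and the only Spanish library with calls, Spanish 3, in 0 of 225 (interval 0 to 1.68%). The Creole mean was 99.9% ± 0.143 (SD, n = 3), and this is the only one of the 4 regions that all 3 Creole libraries covered with 10 or more calls.

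At BRAT1, Creole 1 was methylated in 104 of 111 calls (93.7%, interval 87.6 to 96.9) and Creole 2 in 668 of 668, while Spanish 1, the only Spanish library with calls, was methylated in 45 of 939 (4.79%, interval 3.60 to 6.35). Creole 3 had 8 calls, all methylated, which is under the minimum of 10 set for a value. The Creole mean was 96.8% ± 4.46 (SD, n = 2). Within the region the 4 positions read by both groups were not alike, since in Creole 1 the last, at position 41219695, was methylated in 9 of 15 calls while the other 3 were methylated in 15 of 15. No cytosine of any of the 4 regions had 10 calls in 2 libraries of each group.

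The authors' deposited table gives group means that lie less far apart than the pooled calls. For Creole and Spanish it lists 90% and 7% at LATS2, 96% and 13% at BLM, 98% and 16% at TP53I11, and 92% and 10% at BRAT1. By size of difference the authors' deposited table places 4 of its 334 regions above LATS2, 9 above BLM, 12 above TP53I11 and 4 above BRAT1. The sources used here do not say how those means were made.

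**Figure D2:**
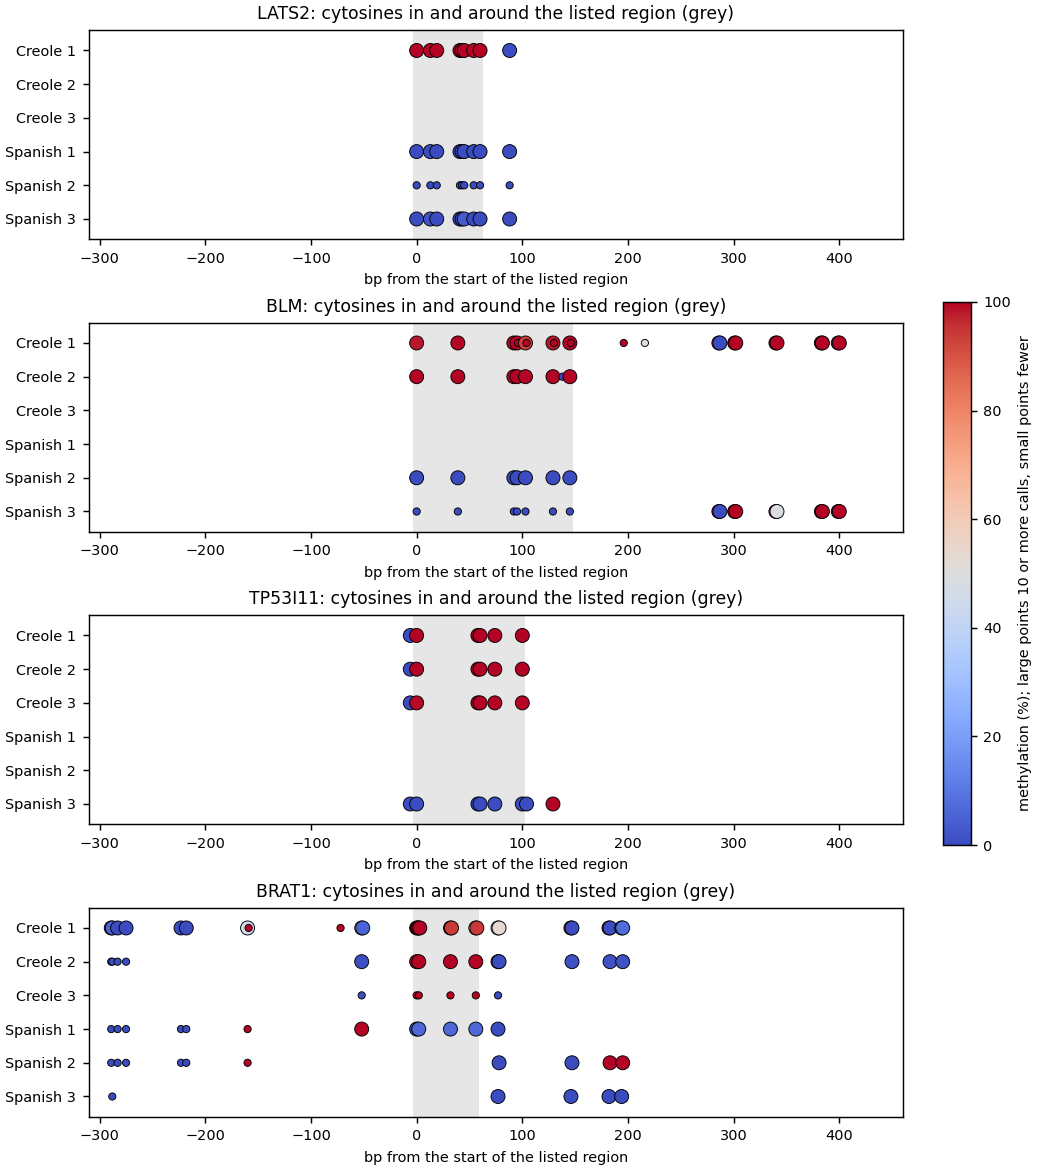
Methylation (colour, 0 to 100%) of single cytosines in each library (rows) by distance in bp from the start of the listed region (x axis, grey band: the region), with large points for 10 or more calls and small points for fewer. Inside the band Creole points are mostly red and Spanish points blue, empty rows are libraries with no call, and colours just outside the band are often shared between groups.

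Around each listed region, cytosines with little or no difference lay close by, and coverage changed from one position to the next. At LATS2 the next cytosine, 28 bp above the region, was methylated in 0 of 16 calls in Creole 1 and in 0 of 25, 0 of 2 and 0 of 52 calls in Spanish 1, 2 and 3, so Creole 1 read its 8 methylated cytosines beside an unmethylated one. Between 477 and 608 bp above the region, Creole 3 had 0 methylated of 121 calls at each position and Spanish 1 had 0 of 165 or 166. At positions 649 to 721 bp above, Creole 1 was fully methylated, and no other library had calls there. Of the 11 cytosines within 1000 bp that both groups measured, all 11 differed by 25 points or less. Most of them compare Spanish 1 with Creole 3, which had no call in the listed region. Creole 1 gave the Creole value only at 28 and 607 bp above. Over the genome 10.8 percent of such cytosines were higher in Creole by over 25 points and 10.9 percent lower.

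At BLM the cytosines 141 to 255 bp above the region were measured in Creole 1 and in Spanish 3, the same Spanish library that was unmethylated inside it. Both were methylated at most of them, for instance 157 bp above, where Creole 1 had 19 of 19 calls methylated and Spanish 3 had 109 of 109. Both were also unmethylated at the same positions, as 142 bp above, with 0 of 19 calls in Creole 1 and 0 of 109 in Spanish 3. The exception was 196 bp above, with 18 of 18 calls methylated in Creole 1 and 53 of 109 (48.6%) in Spanish 3.

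At TP53I11 the cytosine 6 bp below the region was unmethylated everywhere, with 0 of 13, 0 of 11 and 0 of 160 calls in Creole 1, 2 and 3 and 0 of 45 in Spanish 3. Spanish 3 was unmethylated 4 bp above the region (0 of 45 calls) and methylated 29 bp above it (45 of 45), where no Creole library had calls. From 667 to 810 bp above, 9 cytosines were measured in Creole 1, Spanish 2 and Spanish 3, and 7 of them differed by 25 points or less between the groups. The largest difference was 698 bp above, where Creole 1 had 14 of 14 calls methylated, Spanish 2 had 0 of 12 and Spanish 3 had 6 of 18. Of cytosines measured in both groups over the genome, 10.8 percent were higher in Creole by over 25 points and 10.9 percent lower. The count of 7 of 9 is therefore no result about TP53I11.

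At BRAT1 the sign of the difference varied between nearby cytosines, which were not all read in the same libraries. The position 52 bp below the region was methylated in 9 of 15 calls in Creole 1 and 1 of 167 in Creole 2, while Spanish 1 was methylated in 235 of 235, a Creole minus Spanish difference of -69.7 points opposite to that of the region. At 90 and again at 126 bp above, Creole 1 had 12 of 12 calls methylated and Spanish 3 had 0 of 39. At 91 bp above the groups were alike, with 0 of 13 in Creole 1, 1 of 68 in Creole 2 and 0 of 16 in Spanish 2. At 127 bp above, Creole 1 had 0 of 13 and Creole 2 had 1 of 68, while Spanish 2 had 16 of 16. The Spanish values at 126 and 127 bp thus come from different libraries. Creole 1 itself differed between these positions, and also between 90 and 91 bp. Of 21 cytosines within 1000 bp measured in both groups, Creole was higher by over 25 points at 3, lower at 3 and within 25 points at 15. Over the genome the shares are 10.8 percent higher and 10.9 percent lower, so these counts are no result about BRAT1. Per the labels' protocols, bases were added to fill the overhangs of MspI fragments before sequencing, and which of these positions lie at a filled end was not tested.

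Outside the listed regions the same cytosines were compared between groups wherever both had at least 1 library with 10 calls. At the 4 loci this gave 510 cytosines, and the Creole mean was higher by over 25 points at 49 (9.61%) and lower by over 25 points at 59 (11.6%). Over the whole genome 10.8 percent of 948336 such cytosines were higher and 10.9 percent lower, so the loci's shares lie near the background and are no result about these genes. At 346 cytosines (67.8%) the groups were within 5 points, against 65.6% over the genome. LATS2 had 110 such cytosines, with 4 higher and 8 lower. BLM had 69, with 8 higher and 13 lower, TP53I11 had 100, with 12 higher and 13 lower, and BRAT1 had 231, with 25 each way.

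**Figure D3:**
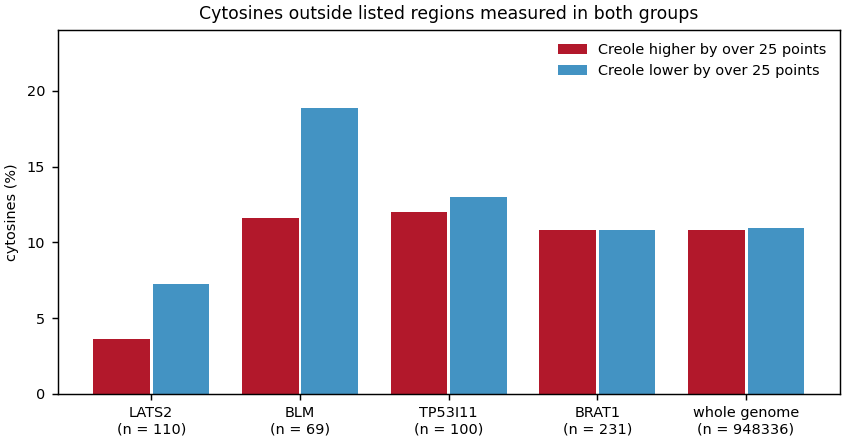
Share of cytosines outside the listed regions and measured in both groups (y axis, percent) whose Creole mean was over 25 points higher (red) or lower (blue) than the Spanish mean, at each locus and over the whole genome (x axis, n = number of cytosines). At BRAT1 both bars are at 10.8%, level with the genome, LATS2 has the shortest bars, and no test was made between loci.

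With 2 or more libraries in each group, 26 cytosines remained, 17 at BRAT1, 6 at BLM, 3 at TP53I11 and none at LATS2. The groups did not overlap at 2 of them, both in the lower flank of BLM and in the same 1000 bp bin. At position 22259470 Creole 1 and Creole 3 were at 100% (13 and 78 calls) and Spanish 2 and Spanish 3 at 0% (29 and 18 calls). At position 22259659 Creole 1 was at 19.4% and Creole 3 at 0%, while Spanish 2 was at 100% and Spanish 3 at 27.1%, so the sign was the opposite. Over the genome the groups did not overlap at 3.71 percent of 124104 such cytosines with Creole higher and at 6.52 percent with Creole lower.

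In bins of 1000 bp, 98 bins of the loci were measured, 69 of them in both groups, and 22 outside the listed regions had 2 libraries in each group. Creole libraries were all above the Spanish ones in 1 of the 22 and all below in 4, where the genome's shares are 9.75 and 11.8 percent of 47367 bins. With all covered cytosines counted, the bins were 3 and 4 of 32, not all of them the same bins, against 8.75 and 11.4 percent over the genome. LATS2 chr12:35937001-35938000, in the gene range, was lower in Creole, at 80.0% in Creole 1 and 92.6% in Creole 2 against 100% in Spanish 2 and Spanish 3. The Creole 1 and Spanish 2 values there rest on 1 cytosine each, with 10 and 18 calls. TP53I11 chr15:75859001-75860000, in the lower flank, was lower too, at 84.8% in Creole 1 and 74.0% in Creole 2 against 86.3% in Spanish 1 and 89.6% in Spanish 2. BRAT1 chr25:41211001-41212000, in the gene range, had 82.7% in Creole 1 and 66.7% in Creole 3, against 83.3%, 100% and 98.3% in Spanish 1, 2 and 3, so the groups were separated by under 1 point, and they overlapped with all covered cytosines. The last, BRAT1 chr25:41217001-41218000, was also separated by under 1 point, at 0% in Creole 1 and Creole 2 against 0.248% in Spanish 1 and 0.576% in Spanish 2. In the LATS2, TP53I11 and chr25:41211001 bins, no cytosine had 10 calls in 2 libraries of each group. The libraries compared in those bins thus did not all read the same positions.

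The bin with Creole higher was TP53I11 chr15:75873001-75874000, which begins 503 bp above the listed region, at 69.5% in Creole 1 and 75.2% in Creole 2 against 55.6% in Spanish 2 and 66.7% in Spanish 3. The libraries did not read the same cytosines there. Creole 2 had calls only at positions next to those of the Spanish libraries, as on the other strand of the same CpGs, and at the 8 positions that Creole 1 shares with Creole 2, Spanish libraries had none. The 100 bp bins of the same stretch go both ways, with Creole at 85.8% and 100% against Spanish at 33.3% and 44.4% from position 75873101, and Creole at 29.8% and 0% against Spanish at 100% and 100% from position 75873301. Of 31 bins of 100 bp outside the listed regions with 2 libraries per group at the 4 loci, 4 were wholly higher and 4 wholly lower in Creole, against 7.56 and 9.94 percent of 67184 over the genome. Of 158 such bins with at least 1 library per group, the Creole mean was over 25 points higher in 19 and lower in 14, against 12.5 and 14.3 percent over the genome.

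The bins of lowest and highest difference overlapped between the groups. BRAT1 chr25:41197001-41198000 had the lowest Creole minus Spanish difference, -39.1 points, with 78.5% in Creole 1 and 0% in Creole 3 against 66.2% in Spanish 2 and 90.4% in Spanish 3. BRAT1 chr25:41192001-41193000 had the highest, 23.2 points, with 63.0% in Creole 1 and 50.0% in Creole 3 against 0% in Spanish 1 and 66.7% in Spanish 2. At BLM the lowest of the 5 differences, all below 0, was -23.7 points at chr21:22252001-22253000 (56.0% in Creole 1 and 79.1% in Creole 3 against 100%, 73.7% and 100% in Spanish 1, 2 and 3), and the groups overlapped in all 5 bins. The only bin measured in all 6 libraries was LATS2 chr12:35934001-35935000, in the gene range. It was at 87.4%, 99.9% and 75% in Creole 1, 2 and 3, against 100%, 90.8% and 90.9% in Spanish 1, 2 and 3 (87.5% ± 12.5 in Creole, 93.9% ± 5.27 in Spanish, SD, n = 3 each), and the groups overlapped.

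**Figure D4:**
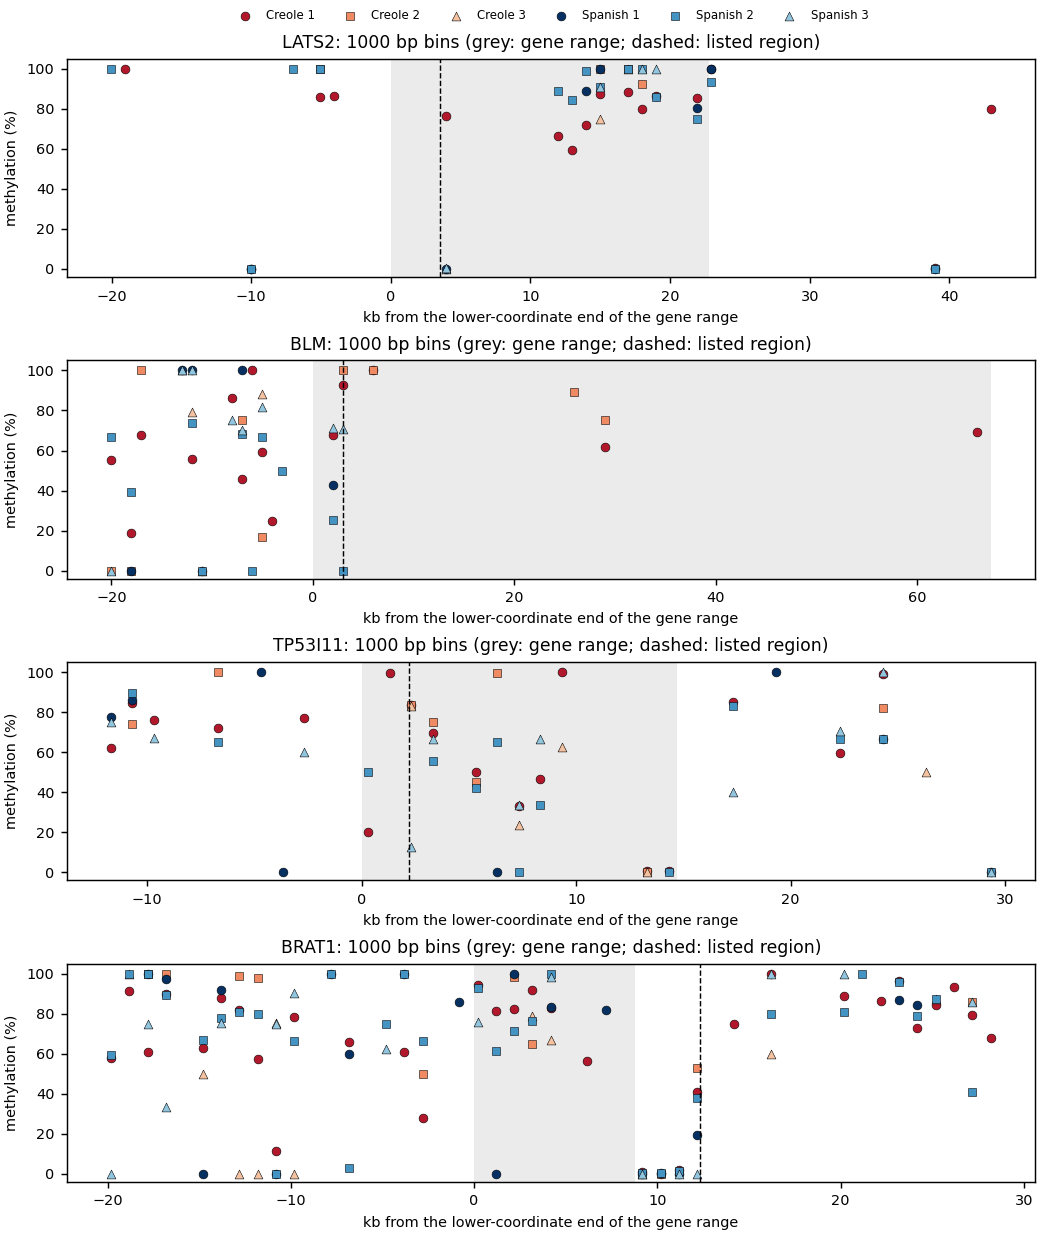
Methylation (y axis, percent) of each 1000 bp bin with at least 10 calls in each library (points), by distance in kb from the lower-coordinate end of the gene range (x axis), with the gene range in grey and the listed region dashed, Creole libraries in red tones and Spanish libraries in blue tones. In LATS2 the gene body points are mostly above 60% in both groups, and most of the BLM gene range has no points. Some bins are near 0% in both groups, while others are near 0% in some libraries and high in others.

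Some bins were low or high in each library that measured them. Of 76 bins with 2 or more libraries, of either group, 9 (11.8%) were below 10% in each library measured and 34 (44.7%) were above 60%, against 10.8% and 45.0% over the genome. The other 33 were intermediate or differed between libraries. At BRAT1 the 3 bins from chr25:41216001 to 41219000, of which the first 2 overlap the CpG island at the upper end of the gene and the last lies beyond it, held 27 to 61 covered cytosines each and reached at most 1.86% in any library. The listed BRAT1 region begins 639 bp beyond the last of them. At TP53I11 the bins chr15:75883001-75884000 and chr15:75884001-75885000, at the upper end of the gene range, stayed at or below 0.737%. Both Creole and Spanish libraries measured the second of these, while the first was measured in the 3 Creole libraries alone. At LATS2 the CpG-dense bins chr12:35909001-35910000 and chr12:35958001-35959000, in the flanks, were at 0% and 0.563% in Creole 1, at 0% and 0.199% in Spanish 1, and at 0.127% and 0.0692% in Spanish 2. BLM had 1 such bin, with 4 covered cytosines.

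The test planned for windows of cytosines covered in all 6 libraries could be run on no window of the loci. With 2 or more libraries in each group, 6 windows of the loci outside the listed regions could be tested with edgeR's quasi-likelihood test, and none of them passed a Benjamini-Hochberg adjusted p of 0.05. The same test called 0.0 percent of 29030 windows over the genome in either direction, with unadjusted p under 0.05 in 539 higher (1.86 percent) and 886 lower ones (3.05 percent). At the loci 0 of the 6 windows had an unadjusted p under 0.05, and edgeR's likelihood ratio test and limma called 0 of them as well. The smallest p was that of BRAT1 chr25:41217001-41218000 in the CpG island (edgeR's quasi-likelihood test, adjusted p = 0.972), with 0% in the 3 Creole libraries and 0.413% and 0.940% in Spanish 1 and Spanish 2, a difference of -0.677 ± 0.264 points (SE).

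The other 5 windows had adjusted p of 0.978 to 1.0 in that test. At BLM chr21:22259001-22260000, Creole 1 and Creole 3 were at 54.1% and 69.7% and the Spanish libraries at 100%, 50.8% and 53.7%. At TP53I11 chr15:75894001-75895000, Creole 1 and Creole 2 were at 98.8% and 81.8% and the Spanish libraries at 66.7%, 66.7% and 100%. At BRAT1 chr25:41195001-41196000, Creole 1 and Creole 2 were at 93.5% and 97.8% and Creole 3 at 0%, while Spanish 1 and Spanish 2 were at 94.4% and 79.9%. Creole 3 also stood at 0% in the neighbouring BRAT1 window from position 41194001, where Creole 1 and Creole 2 were at 82.0% and 98.8%, against 36.4% and 80.6% in Spanish 1 and Spanish 2. At BRAT1 chr25:41223001-41224000, Creole 1 and Creole 3 were at 100% and 75%, and Spanish 2 and Spanish 3 at 75% and 100%.

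Levels of whole loci were averaged over different cytosines in each library. The mean level outside the listed region at TP53I11 was 51.2%, 52.7% and 25.8% in Creole 1, 2 and 3 against 65.6%, 54.3% and 56.2% in Spanish 1, 2 and 3, and the groups did not overlap (43.3% ± 15.1 in Creole, 58.7% ± 6.06 in Spanish, SD, n = 3 each). Over the whole genome the groups did not overlap in this measure either, with Creole higher (55.2% ± 1.76 in Creole, 52.0% ± 1.07 in Spanish, SD, n = 3 each). At cytosines that a Creole and a Spanish library both measured, the mean difference was -0.233 points at TP53I11. It covers the 4 of 9 pairs with 10 or more shared cytosines, and Creole 3, without which the locus difference of -15.4 points is -6.73, is in none of them. At LATS2 the locus mean was 63.0% ± 30.9 in Creole and 50.0% ± 15.2 in Spanish, at BLM 67.3% ± 11.9 in Creole and 56.6% ± 9.63 in Spanish, and at BRAT1 59.4% ± 6.19 in Creole and 57.7% ± 5.22 in Spanish. The groups overlapped at these 3 loci. At BLM no library had a cytosine with 10 calls in the upper flank, and all 21 of Creole 3 lay in the lower flank. No test was made, since no cytosine was shared by all 6 libraries.

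Libraries of the same group also differed at the cytosines they shared. Pooled over the loci, the mean absolute difference per cytosine was 15.4 to 46.4 points in the 3 pairs of Creole libraries, 7.14 to 30.1 in the 9 pairs of a Creole and a Spanish library and 8.36 to 20.0 in the 3 pairs of Spanish libraries. The highest value, 46.4, is the pair of Creole 2 and Creole 3 over 16 shared cytosines. Of these, 12 lie at BRAT1 (61.9 points), and those at LATS2 and TP53I11 differed by 0 points. The next value within a group is 22.7, below 3 of the pairs between groups. Over the genome the ranges were 16.001 to 18.3 within Creole, 15.1 to 17.4 between groups and 13.3 to 14.4 within Spanish. Most single cytosines were read as fully methylated or fully unmethylated, 84.9 to 100% of them per library at LATS2, 64.8 to 100% at BLM, 77.1 to 93.8% at TP53I11 and 78.5 to 100% at BRAT1, against 68.6 to 91.7% over the genome. Positions 1 bp apart, as the 2 strands of a CpG are, differed by over 75 points in 14 of 84 pairs in Creole 1, 0 of 7 in Creole 2 and 0 of 2 in Creole 3, and in 4 of 26 in Spanish 1, 16 of 80 in Spanish 2 and 2 of 6 in Spanish 3. Over the genome such pairs made up 16.7 to 24.4% per library, and 16.7% in Creole 1.

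The authors' deposited table held none of the other genes in the pathway lists of LATS2, BLM and BRAT1. For the Hippo pathway 0 of 25 other genes were listed, among them YAP1, WWTR1 and LATS1. For RecQ helicases and homologous recombination it was 0 of 21 (WRN and TOP3A among them), and for DNA damage signalling 0 of 14 (ATM and MRE11). The authors' deposited table names 79 of the 21666 protein-coding symbols of RefSeq (0.365%), so counts near 0 for lists of this size are no result about these pathways. The lists were matched by symbol alone, and the coverage of those genes was not examined. In the RefSeq annotation of ARS-UCD2.0, used for gene order alone, LATS2 lies between SAP18 and XPO4, BLM between FURIN and CRTC3, TP53I11 between TSPAN18 and PRDM11, and BRAT1 between AMZ1 and IQCE.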

How the data were processed

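Blood DNA of 6 animals was cut with MspI, converted with bisulfite and amplified in 20 PCR cycles, per the labels' protocols. The submitters' processing notes name Trim Galore, Bismark, methylKit and UMD3.1. Their versions, the treatment of duplicate reads and the method behind the regions were not given in the sources used here. The deposited coverage files hold, per library, counts of methylated and unmethylated calls per cytosine, not normalized, with strands apart, and the percent made from them. The authors' table gives, per the file headers, the mean of each group as a fraction (printed here in percent), their difference (Spanish minus Creole), and a score per region, used in no comparison. It holds 4 regions of these genes among 334.

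The members and gene lists were chosen with earlier results of these data known. The result of 1 list is not reported here. Groups follow the breed labels, and every difference is Creole minus Spanish in percentage points. A library's level was taken over cytosines with 10 or more calls (listed regions: all calls, at least 10). Windows of 1000 bp over the genome needed 3 cytosines and 10 calls in each library required. They were tested with edgeR 4.0.16 (a quasi-likelihood test of both call counts with a term per library, no dispersion trend and Benjamini-Hochberg adjustment over all windows). The design asked for cytosines covered in all 6 libraries. It gave 4702 windows, none of them in the loci, so windows with 2 or more libraries per group, added after the data were seen, are reported. These needed 10 calls in at least 2 libraries of each group. The fit used the counts of every library, also of those with fewer calls. This test was first tried on simulated data. Other settings were the likelihood ratio test, limma 3.58.1 (2 added to each count), 5 or 20 calls, bins of 100 bp, a grid shifted by 500 bp, and leaving out each library. In the comparison of groups, bins are named from those outside the listed regions with 2 or more libraries per group. They are the bins within 1000 bp of a listed region, those in all 6 libraries, and the highest and lowest difference. The design also named bins that overlap a listed region, which are not printed. Bins whose groups do not overlap were chosen after their values were seen. R 4.3.3, Python 3.11.15, numpy 2.4.6, pandas 2.3.3, scipy 1.17.1 and matplotlib 3.10.9 were used. No reference sequence of UMD3.1 was used.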

Additional observations from a re-analysis of the deposited data

How the results depend on the processing

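Coverage limits these values: no cytosine of the loci was read in all 6 libraries, and each listed region rests on 1 to 3 libraries per group. Of 25 alternative settings for windows, 9 left no window in the loci to test, and in the other 16, with 1 to 7 windows each, none was called (1 had an unadjusted p under 0.05). Over the genome the window count was 0, against 58 with the likelihood ratio test, 1 with limma and, with 2 or more libraries per group, 857 with the likelihood ratio test. Locus differences of 13.03 (LATS2), 10.6 (BLM), -15.4 (TP53I11) and 1.65 points (BRAT1) moved to -10.4 at BLM and 10.98 at BRAT1 with 20 calls per cytosine. They came to 1.52, 32.5, 2.30 and -6.67 in the gene range alone, and to -0.289, 0.792, -0.233 and -6.45 over pairs of libraries at shared cytosines. In the BLM gene range Creole 3 had no cytosine with 10 calls, and the other libraries had 7 to 28 outside the listed region. Spanish 1 was at 0% over only 5 cytosines in the TP53I11 gene range. BLM was at 0.519 weighted by calls, and BRAT1 at -2.18 with 5 calls. Leaving out 1 library gave -4.76 to 23.0 at LATS2, 3.76 to 16.1 at BLM, -20.2 to -6.73 at TP53I11 and -1.36 to 5.03 at BRAT1. The causes were not tested. The listed BLM region differed by 93.3 points with cytosines weighted equally, against 98.9. With equal weights, position 22267659 of Creole 2, with 0 of 1 call methylated, counts as much as each of that library's other positions, with 17 of 17. Without 1 library the listed regions differed by 99.7 to 100 (LATS2), 98.5 to 99.2 (BLM), 99.9 to 100 (TP53I11) and 88.9 to 95.2 points (BRAT1). LATS2 without Creole 1, TP53I11 without Spanish 3 and BRAT1 without Spanish 1 have no value left. Bins of 1000 bp with Creole wholly higher numbered 3 with all covered cytosines and 0 with 20 calls, against 1, and 0 to 2 with 1 library left out, while those wholly lower numbered 1 with 20 calls, against 4, and 0 to 4. Bins of 100 bp numbered 1 higher and 1 lower with 20 calls, against 4 and 4, and 0 to 4 each with 1 library left out. Without Creole 1 only 2 of the 22 and 1 of the 31 bins remain, with 0 in either direction, and 157 of the 510 shared cytosines. Shares of shared cytosines over 25 points apart were 8.996 to 12.7% higher and 10.1 to 13.4% lower with 1 library left out, and 8.64% lower with 20 calls. A count of 100 bp bins in all 6 libraries was not run, since no such bin exists in the loci. Settings for bins and single cytosines, pairs of libraries, and 2 or more libraries per group were chosen after seeing the data. No paired analysis was possible because the numbers only follow sample order and link no animals between groups.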
